A study of Gallus gallus with 20 samples.

Results

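In the ileum of broiler chickens, 73 genes were higher in every bird of the avilamycin group than in every control bird. They were picked from the 24356 gene IDs of the count table by their values in these same birds. A gene was taken if its mean level over the 10 birds was from 1 to under 1000 CPM (the counts of the gene over the total counts of the bird, scaled by a common factor). Its lowest value among birds D2, D3, D4, D5 and D7 also had to lie above its highest among A3, A4, A5, A6 and A7, and its avilamycin mean had to be at least 25% above its control mean. Of the 13407 genes in that range of levels, the 73 make up 0.544%, and the mirror rule (lower in every avilamycin bird) takes 57 genes, or 0.425%. Without the minimum for the means, the shares were 0.903% (121 genes higher) and 0.947% (127 genes lower). The contrast between the groups chose these genes, so their differences between the groups are given below as a description without a test.

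Total RNA was sequenced from pieces of mid-ileum of chickens aged 35 days, after depletion of ribosomal RNA and with strand-specific libraries. The labels place 5 birds in a group named Control and 5 in a group named Avilamycin, with 2 technical libraries per bird, which were summed here. The sources used here do not state dose, length of feeding, breed line, sex or housing, and the labels name no treatment that both groups share. Bird totals were 31130907 to 43679559 counts in control birds and 37952904 to 45371754 in avilamycin birds.

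Avilamycin is an oligosaccharide antibiotic that binds the bacterial ribosome and acts mainly on Gram-positive bacteria, and it has been added to poultry feed as a growth promoter. The ileum is the last part of the small intestine. Its wall holds absorptive, mucus-secreting and hormone-producing epithelial cells over a layer rich in immune cells, with smooth muscle and nerves beneath. A piece of the whole wall mixes all of these, so more cells of a type and more RNA per cell cannot be told apart in such samples.

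The deposited table names genes by Ensembl ID alone, and none of these IDs was found in the reference gene table used here. No member could therefore be given a symbol, a role or a place in a pathway, and the label of the tissue was not checked against marker genes. Members are numbered here from 1 to 73 by falling mean level. IDs are printed for 2 of them, the most abundant (member 1, ENSGALG00000030187) and the one with the widest gap between the groups (member 64, ENSGALG00000053914).

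The 73 genes had mean levels from 1.006 to 504.8 CPM. The range from 1 to under 10 CPM held 27 of them, 33 lay from 10 to under 100 CPM and 13 at 100 CPM or more. These were 0.638%, 0.441% and 0.771% of all genes in the 3 ranges. Together they took 0.263% to 0.377% of all counts in control birds and 0.480% to 0.584% in avilamycin birds. In most of them the difference was modest. The ratio of group means was under 1.5 in 41 members, from 1.5 to under 2.5 in 23 and at least 2.5 in 9, with a median of 1.47 and a highest value of 6.21. On the log2 scale of edgeR's fit the differences ran from 0.33 to 2.67, with a median of 0.56 and standard errors of 0.07 to 0.62. The median over all 15516 genes of that fit was -0.00034, which its scaling of the birds (TMM) tends to bring near 0. By CPM of total counts, the median log2 difference of all genes in the range of levels was -0.012.

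**Figure D1:**
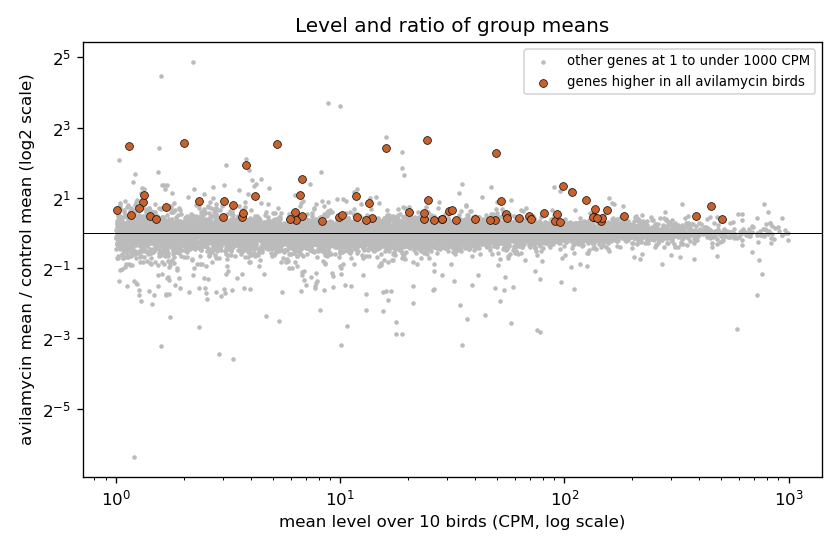
Each point is a gene at a mean level of 1 to under 1000 CPM, with its mean level on the horizontal axis (log scale) and the ratio of its avilamycin mean to its control mean on the vertical axis (log2 scale). The 73 genes picked by the rule are in orange, and many grey genes with ratios as high are not among them because their groups overlap.

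A high ratio alone did not make a gene a member. Of all genes in the range of levels, 803 had a ratio past the 25% minimum, and 9.09% of these were members. At a ratio of at least 2.5 there were 36 genes, 9 of them members, and in the other 27 at least 1 avilamycin bird lay at or below a control bird. In the other direction, 84 genes of the range had a ratio of at most 0.4. At the limits of the rule, the member with the lowest ratio stood at 1.251, and the gene just outside stood at 1.248. The smallest quotient of the lowest avilamycin to the highest control value was 1.0005, and the nearest gene outside reached 0.99995. Below the lower limit of level, the nearest gene that met the other conditions was at 0.978 CPM, and above the upper limit it was at 3385 CPM.

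The gap between the groups was narrow for most members. The lowest avilamycin value was at least 5% above the highest control value in 38 of the 73, at least 10% above in 25 and at least 20% above in 10, and the median quotient was 1.07. For 54 members the exact 95% Clopper-Pearson intervals of these closest birds overlapped, and for 19 they did not. The rule used these same values and the share over all genes was not computed, so nothing is read from these counts. Such intervals cover counting error only, since reads without molecular identifiers are not independent molecules. The number of counts behind a value ran from 6 to 32369 per bird, and 4 members had under 20 counts in at least 1 bird.

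Member 1, ENSGALG00000030187, was the most abundant gene of the 73. Its level in control birds was 417.5 CPM in A3, 474.4 in A4, 489.2 in A5, 348.7 in A6 and 459.4 in A7. In avilamycin birds it was 555.9 CPM in D2, 494.1 in D3, 555.6 in D4, 592.6 in D5 and 660.2 in D7. D7 was highest and A6 lowest, and the closest birds, A5 and D3, were within counting error of each other (intervals of 482.2 to 496.3 and 487.4 to 500.8 CPM). The group means were 437.8 ± 56.6 CPM (SD, n = 5) and 571.7 ± 60.8 CPM (SD, n = 5), a log2 difference of 0.40 ± 0.10 (SE, edgeR).

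Member 64, ENSGALG00000053914, had the widest gap of the 73 at a low level. Control birds had 1.09 CPM (A3), 0.395 (A4), 0.496 (A5), 0.389 (A6) and 0.509 (A7), from 14 to 34 counts. Avilamycin birds had 2.45 CPM (D2), 5.06 (D3), 3.49 (D4), 2.54 (D5) and 3.61 (D7), from 93 to 212 counts. A3 stood above the other control birds, and even so the lowest avilamycin bird, D2, had 2.24 times its level. The intervals of these closest birds, 0.756 to 1.53 CPM and 1.98 to 3.002 CPM, did not overlap. The next widest gap was that of member 72, at 1.81 times. That gene was scarcer still, with 6 to 20 counts in control and 35 to 121 in avilamycin birds, and the intervals of its closest birds, A7 and D2, overlapped.

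Among abundant members the difference could be larger than in member 1. Member 2 was at 328.0 CPM in A3, 306.2 in A4, 447.8 in A5, 182.0 in A6 and 409.6 in A7, against 506.4 in D2, 545.0 in D3, 517.0 in D4, 539.3 in D5 and 713.4 in D7. Here too A6 was lowest and D7 highest, while the other avilamycin birds lay close together. Member 13 was at 67.6, 43.3, 67.3, 64.8 and 90.6 CPM in A3, A4, A5, A6 and A7, and at 209.5, 144.7, 110.7, 138.9 and 144.3 CPM in D2, D3, D4, D5 and D7. Its ratio of means was 2.24, and in this gene D2 was the highest bird and A4 the lowest.

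**Figure D2:**
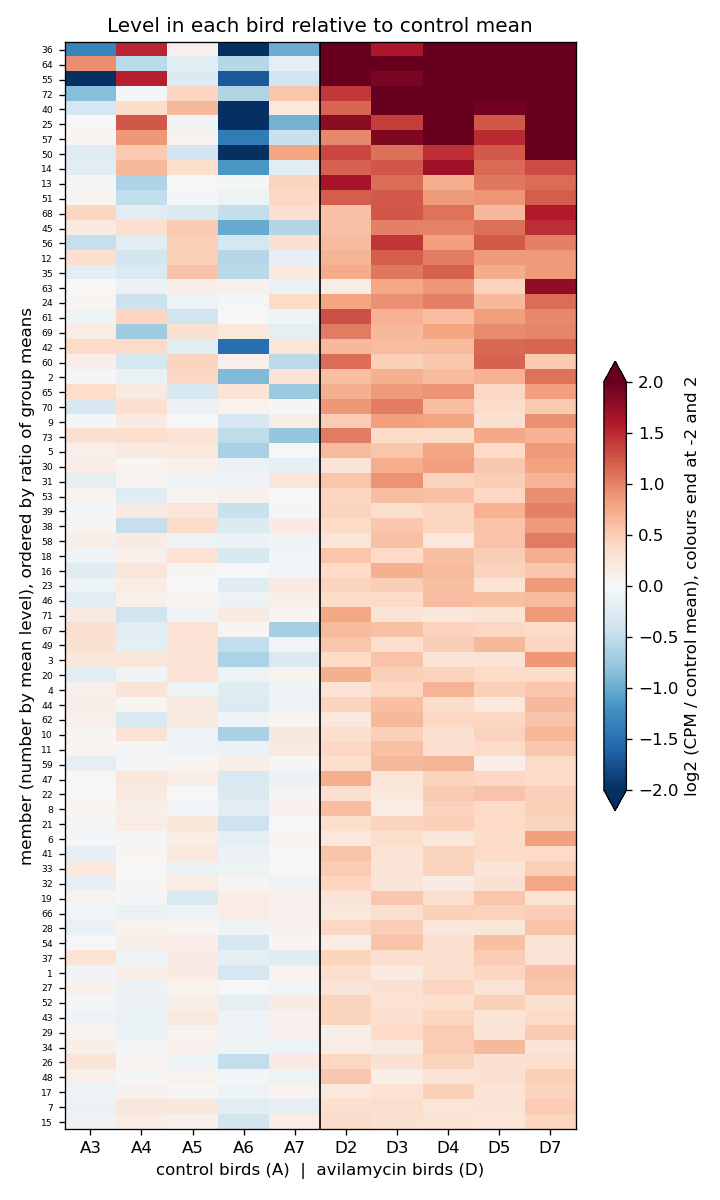
Each row is 1 of the 73 genes, ordered by the ratio of group means with the highest (6.21) at the top, and each column is a bird. Colour gives log2 of the bird's CPM over the control mean, with colours saturated beyond the ends of the scale. The avilamycin columns are red in every row, as the rule requires, and the darkest blue cells are mostly in bird A6, near the top.

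The members with a ratio of at least 2.5 were 9 in number, and they are described as a set chosen by that ratio. They were members 14, 25, 36, 40, 50, 55, 57, 64 and 72. Their summed level was 78.0 CPM in A3, 166.5 in A4, 109.6 in A5, 31.9 in A6 and 74.97 in A7. In avilamycin birds the sum was 255.8 CPM in D2, 264.0 in D3, 423.2 in D4, 251.1 in D5 and 410.7 in D7. The control birds thus spread over a wider relative range than the avilamycin birds, with A6 lowest and A4 highest. The group means of the sum were 92.2 ± 49.9 CPM and 320.9 ± 87.9 CPM (SD, n = 5 each), a ratio of 3.48.

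Member 14 made the largest contribution to that sum in most birds. It was at 48.2 CPM in A3, 87.3 in A4, 71.8 in A5, 24.9 in A6 and 47.6 in A7, and at 126.7 in D2, 133.0 in D3, 180.7 in D4, 122.2 in D5 and 138.5 in D7. The groups were well apart, with the lowest avilamycin bird at 1.40 times the highest control bird, and D4 stood above the rest of its group. Member 36 had the highest ratio of all. It was at 2.70, 19.3, 7.15, 1.17 and 3.39 CPM in A3, A4, A5, A6 and A7, and at 35.0, 20.7, 58.6, 43.1 and 51.9 CPM in D2, D3, D4, D5 and D7. The groups almost met in this gene, since A4 was far above the other control birds and D3 was the lowest of the avilamycin birds.

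Member 25 met the rule by the smallest margin of the 73. It was at 17.2, 40.3, 16.3, 2.43 and 8.81 CPM in A3, A4, A5, A6 and A7, and at 59.2, 44.4, 104.7, 40.3 and 159.5 CPM in D2, D3, D4, D5 and D7. A4 (1429 counts, 40.29 CPM) and D5 (1588 counts, 40.31 CPM) were equal within counting error, while the group means differed by a ratio of 4.805. Member 40 was at 3.95, 6.51, 7.85, 0.984 and 5.83 CPM in the control birds in the same order, and at 11.3, 40.0, 42.3, 19.2 and 21.8 CPM in the avilamycin birds. It had the third widest gap of the 73, at 1.44 times, with A6 lowest in one group and D2 in the other.

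**Figure D3:**
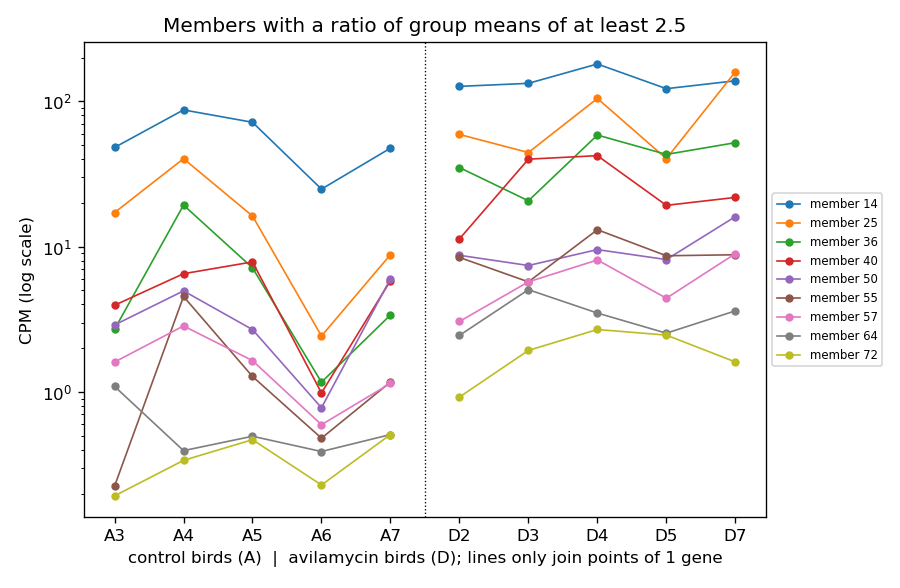
CPM (log scale) of the 9 members with a ratio of group means of at least 2.5 in each bird, control birds on the left and avilamycin birds on the right. Lines only join the points of 1 gene within a group. In 7 of the 9 genes the lowest control bird is A6.

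Some birds stood at the ends of their groups in a larger share of the members than of all genes. A6 was the lowest control bird in 37 of the 73 members (50.7%), against 25.1% of all genes in the range of levels. D7 was the highest avilamycin bird in 31 members (42.5%), against 17.1% of all genes. At the ends that face each other, A5 was the highest control bird in 25 members (34.2%, against 16.7% of all genes) and D2 the lowest avilamycin bird in 26 (35.6%, against 22.2%). The rule used the values of all these birds, so the shares are a description, and the part of the choice of members in them was not tested. Without A6, 67 of the 73 still met the 25% minimum in the remaining birds, and the median ratio of all 73 was 1.42. Without D7 the number was again 67, and the median ratio of all 73 was 1.41. All 9 of the members with the highest ratios kept a ratio of 2.20 or more without A6.

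Variation between birds within a group was of similar size in members and in other genes. The SD of log2 CPM within the groups had a median of 0.21 in the 73 and 0.19 in all genes of the range. The rule limits the spread of a member relative to its group difference, so this comparison is a description. In control birds the coefficient of variation of a member ran from 5.81% to 113%, with a median of 15.6%. In avilamycin birds it ran from 3.53% to 61.8%, with a median of 13.3%, and it was larger in control birds for 51 of the 73. The share of all genes with a larger value in control birds was not computed, so this is not read as a trait of the members.

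After the group means were removed, the members tended to vary together across the 10 birds. The median Pearson correlation over their 2628 pairs was 0.194, and 68.6% of pairs were above 0. Over all pairs of genes in the range of levels the median was 0.020, and 51.9% were above 0. Correlations above 0.7 made up 7.002% of the members' pairs and 2.93% of all pairs. These correlations share the same 10 birds and their total counts, and without A6 the members' median fell to 0.092. The median over all pairs was not computed without A6, so 0.092 cannot be set against 0.020. The rule used the values of single birds as well as the group means, so removing the means does not remove the choice of members. Its part in the difference from all pairs was not tested. The correlations describe these birds and carry no test.

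**Figure D4:**
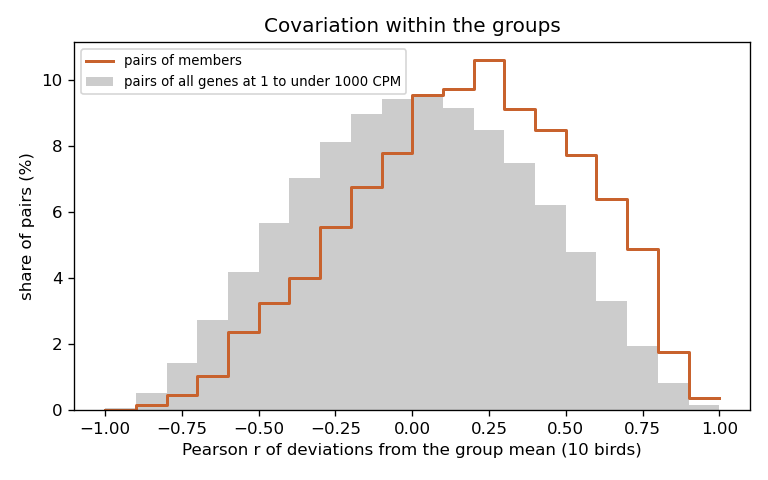
Share of gene pairs (%) by the Pearson correlation of their deviations from the group mean across 10 birds. The orange line is for pairs of the 73 genes, with a median of 0.194, and the grey bars are for pairs of all genes at 1 to under 1000 CPM, with a median of 0.020.

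At a mean correlation of 0.7 between joined branches, 29 of the 73 fell into 7 clusters of at least 3 genes, and 44 did not. The largest cluster held members 4, 5, 14, 21, 25, 40 and 57, with a median correlation of 0.811 between its genes. In it, A6 lay 1.11 below the control mean on the log2 scale and A4 lay 0.69 above it, while D4 lay 0.38 above and D2 0.37 below the avilamycin mean. A second cluster (members 10, 15, 26, 42 and 50) was also marked by A6, 0.92 below its group. A cluster of members 22, 36 and 55 had A4 at 1.501 above and A6 at 1.02 below the control mean. Members 27, 53 and 63 formed the only one of the 7 in which A6 was not the lowest control bird, with D7 at 0.49 above the avilamycin mean. The clusters were drawn from these same birds and are a description.

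The 9 members with the highest ratios varied together more closely than the 73 as a whole, with a median correlation of 0.565 over 36 pairs, 33 of them above 0. Their mean log2 deviation from the group mean was largest in A4 (0.99) and A6 (-1.32), and without A6 the median correlation was 0.316. Other genes that vary as much between birds were not compared, so the closer correlation is not read as a trait of the 9. Of 13334 other genes in the range of levels, 201 (1.51%) correlated above 0.8 with the mean deviation of the 9 members. Among all pairs of genes in the range, 0.9905% correlated above 0.8 and 0.575% below -0.8. Those pairs are of single genes, whereas the genes counted here were set against a mean of 9, so the shares are not directly comparable. Of the 201, 178 (88.6%) had a higher mean in avilamycin than in control birds, with a median log2 difference of 0.16. Another 188 genes (1.41%) correlated below -0.8, and 13 of them (6.91%) were higher in avilamycin birds, with a median log2 difference of -0.27. Among all 13334 genes, 46.2% were higher in avilamycin birds. Without A6, correlations above 0.8 were found for 119 genes, 69.7% of them higher in avilamycin birds, and correlations below -0.8 for 91, 21.98% of them higher. The 9 were themselves picked by their group difference, so these shares are descriptions without a test.

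The rule used the sum of the 2 technical libraries of each bird, and only the difference between them was not used. In all 73 members the ratio of group means was above 1 in the first libraries and in the second. When the first libraries were taken alone, the groups were apart in 46 members, and in the second libraries also in 46, with 33 in common. Among all genes in the range, every avilamycin bird lay above every control bird in 0.768% by the first libraries and in 0.813% by the second. In 26 members all avilamycin libraries lay above all control libraries, against 0.246% of all genes, and 6 of the 9 members with the highest ratios were among them. The rule picked on sums of these libraries, so nothing is read from these counts and shares.

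Between the libraries of a bird the SD of log2 CPM had a median of 0.12 over members, below the median of 0.21 between birds of a group. In 17 members the technical SD was the larger. In member 14 the technical SD was 0.058 against 0.52 between birds of a group, and in member 72, the scarcest of the 9 with the highest ratios, 0.62 against 0.56. The technical SD is that of single libraries, whereas the SD between birds is that of summed libraries, in which technical error is smaller. These values are therefore not directly comparable. The count of 17 does not show that technical error exceeded the spread between birds.

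**Figure D5:**
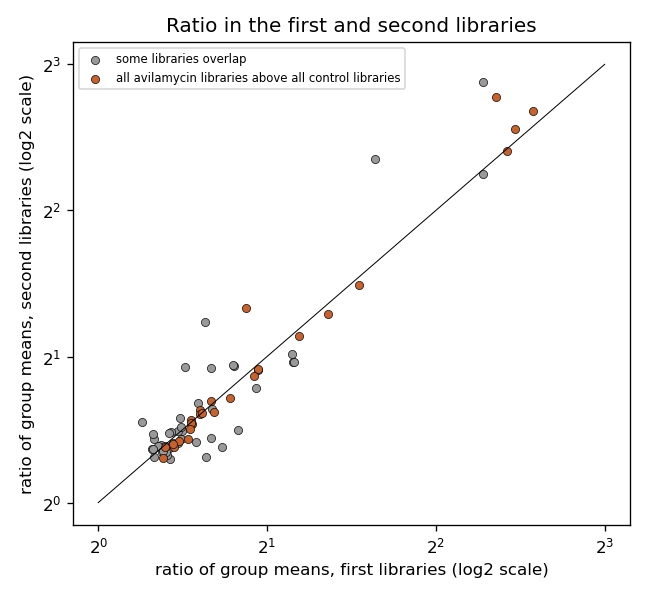
Ratio of the avilamycin mean to the control mean of each member in the first libraries (horizontal, log2 scale) and the second libraries (vertical, log2 scale) of the birds, with the line of equality. All 73 points lie above 1 on both axes, and the 26 members with all libraries apart are in orange.

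Library number itself was tested within birds. In edgeR's quasi-likelihood test of the second against the first library, with the bird as a block, 1 of the 73 members passed an adjusted p under 0.05 (1.37%), against 0.558% of 14325 genes. This was member 24, lower in the second libraries by a log2 difference of -0.16 ± 0.03 (SE, edgeR adjusted p = 0.0146), named after its value was seen. Its log2 difference between the groups was 0.91, and both libraries of every avilamycin bird lay above all control libraries. The rule chose member 24 by this contrast, so nothing is read from its group difference. The median absolute difference between libraries was 0.046 in members and 0.048 in all genes tested. The call of member 24 was lost in fits without A7, without D2 or without D3 and in DESeq2, which called 0 members. These fits called few genes of any kind: 0.076% of all genes without A7, 0.117% without D2, 0.083% without D3 and 0.401% in DESeq2. Nothing is therefore read from the 0 members.

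A block of 19 other genes was on (above 1 CPM) in birds A4, A6, A7 and D7 and off (under 0.1 CPM) in the other 6, so it was on more often in control birds. The level of this block was tested with group in the model, which concerns variation within the groups. The rule limits that variation too. A gene much higher with the block on would be raised in A4, A6 and A7, and one much lower would be reduced in D7. Either can make the groups overlap. A gene lower with the block on would also be reduced in A4, A6 and A7, which raises its ratio of group means. The part of the rule in the number of calls was not tested, so nothing is read from that number. In edgeR's quasi-likelihood test 0 of the 73 members passed an adjusted p under 0.05, against 1.95% of 15516 genes. Of the 302 genes called, 288 were lower with the block on. At an unadjusted p under 0.05 there were 3 members (4.11%), all lower with the block on. Among all genes the share was 7.41%, with 782 of 1149 lower. DESeq2 (2.19% of all genes called) and limma voom (1.90%) called 0 members too. The DESeq2 fit also tested the 19 genes of the block, which the filter of the other fits dropped, so its share is not directly comparable. Scaled to the distance between birds with and without the block, the members' log2 differences ran from -0.48 to 0.75, with a median of 0.02. The smallest adjusted p was 0.252 (edgeR). Without A6, 1 member (1.37%) passed, against 1.79% of 15667 genes.

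The rule used the contrast between the groups, so the calls of members in it are listed here and nothing is read from them. By edgeR's quasi-likelihood test, 0 of the 73 members had an adjusted p under 0.05, as had 0 of all 15516 genes (0%), and limma voom also gave 0. At an unadjusted p under 0.05 all 73 were found, which their choice by the same contrast favours, against 11.1% of all genes. DESeq2 called 51 of the 73, against 0.909% of 21458 genes. A fit of the 20 libraries by limma voom, in which the library number was a replicate block and the bird a random effect, called 48, against 1.73% of 14325 genes, and it counts technical libraries in part as replicates. Among the 6 birds without the block of 19 genes, 2 control and 4 avilamycin, the members' median log2 difference was 0.45. All 73 kept a positive sign, which their choice by groups that do not overlap in CPM of total counts favours.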

How the data were processed

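The authors deposited raw counts of 20 libraries over 24356 Ensembl gene IDs, 2 per bird. Per the submitters' processing notes, the tools were HTSeq 0.6.1, STAR, Trimmomatic 0.36, DESeq2 and SAMtools 1.7, without their roles. The notes give the build galGal5, whereas the table's name gives GRCg6a. No coordinates are printed. The sources used here do not say whether counting used strand, so overlapping, antisense and duplicated genes are uncertain. A second deposited file was identical to the count table. The reference table (GRCg7b, 25635 genes) holds 0 Ensembl IDs, so the gene lists and marker lists could not be used and 0 lists were tested.

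Library totals were 14079936 to 26708365 counts. Libraries were summed per bird. The members and lists were chosen with earlier results of these data known. IDs were named by rule: the most abundant member and that with the widest gap. Members picked out by ratio were chosen after their values were seen. CPM are of total counts, and log2 CPM use a prior count of 2. All genes kept by filterByExpr were fitted with edgeR 4.0.16 (R 4.3.3, TMM, quasi-likelihood, Benjamini-Hochberg, threshold 0.05). The fits were also run on simulated counts. Their recovery of set differences is not given here, so the power at 5 birds per group is not stated. Alternatives used DESeq2 1.42.0, limma 3.58.1, other scalings and filters, and fewer birds or libraries. The labels do not say that birds came from separate pens, so p-values of the group and block tests measure the spread between these birds. Those of the library number test measure the spread between libraries within birds.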

Additional observations from a re-analysis of the deposited data

Results flagged for a closer look

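Among 150 sets of 5 birds (each member, the sum of all members and the sum of the 9 with the highest ratios, in each group), 8 held a bird far from the others, its gap to the nearest bird being over 0.71 of the range. Chance gives about 1 in 20 for unselected values of a normal distribution. These are CPM of genes picked by the rule, so that rate need not hold, and the sets share birds. D7 was the bird in 4 of the 8. It was the highest avilamycin bird for the sum of all members (5837 CPM, next 5083), member 2 (713.4 CPM, next 545.0), member 6 (223.4 CPM, next 162.3) and member 50 (16.1 CPM, next 9.54). D4 was the highest avilamycin bird for member 14 (180.7 CPM, next 138.5). Among control birds, A4 was lowest for member 53 (4.23 CPM, next 4.99) and highest for member 55 (4.54 CPM, next 1.28), and A3 was highest for member 64, ENSGALG00000053914 (1.09 CPM, next 0.509).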

How the results depend on the processing

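The rule gave 73 genes. It gave 82 on TMM totals (66 shared with the 73), 78 on DESeq2 size factors (62 shared), 75 and 66 with technical number 1 or 2 alone (46 and 45 shared), 32 at a minimum ratio of 1.5, 121 with no minimum ratio and 46 from 10 CPM. Without 1 bird it gave 79 (A6) to 145 (D2), of which 66 to 73 were shared, as fewer birds make groups easier to part. The members' median log2 difference of 0.56 was 0.45 in birds without the block of 19 genes, and ranged from 0.49 to 0.59 without 1 bird. The count of 0 genes called between the groups by edgeR became 195 in DESeq2, 2 with technical number 2 alone, 1 with the block level as a covariate, and 0 to 3 without 1 bird (2 without A3, 3 without D2, 1 without D4). Voom of 20 libraries, with library number as a replicate block and bird as a random effect, gave 248, with a correlation of 0.661 between libraries of a bird. The numbers 3, 4, 5 and 7 are used for birds of each group, but deviations of birds sharing a number were hardly correlated (-0.034 to 0.083), and the bird number as a replicate block gave 0. Between libraries, the 80 genes called became 406 with no filter and 42 from 10 CPM, and 11 (without A7) to 436 (without A3) without 1 bird. The 1 member called became 3 with no filter (1.89% of all genes called), 0 in DESeq2 (0.401%) and 0 to 2 without 1 bird (0.076% to 2.99%). For the block, 302 genes were called, 470 in DESeq2, and 0 members became 0 to 1 without 1 bird (1.44% to 2.13% of all genes called). DESeq2 and some fits without 1 bird also tested the 19 genes of the block itself, so their counts of genes are not directly comparable with 302. The median correlation of members was 0.092 (without A6) to 0.236 without 1 bird, and stayed from 0.164 to 0.218 with other prior counts, Spearman's method and the block level regressed out. The causes were not tested. Depth limits the scarcest members most, down to 6 counts per bird.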
